A study of Homo sapiens with 18 samples.

Results

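Inflammasome sensors and inflammatory caspases were followed as 10 genes of the 57500 in the deposited count tables, chosen by name from GENCODE 29 symbols: the sensors NLRP1, NLRP3, NLRP12, NLRC4 and AIM2, the adaptor PYCARD, the caspases CASP1, CASP4 and CASP5, and the pore former GSDMD. The rule used gene names and no measured value, but the genes were chosen with earlier results of these data known. RNA came from THP-1, a human monocytic leukaemia line, in 3 stable lines made with lentiviral particles. The shNT line carried a non-target short hairpin RNA, shNR4A2 one against NR4A2 and shNR4A3 one against NR4A3, 2 orphan nuclear receptors. After 2 h of incubation each line was left untreated (control) or given LPS, the endotoxin of Gram-negative bacteria, at 2.5 µg/ml for a further 2 h, which gave 6 groups of 3 libraries from independent experiments. Each knockdown was 1 line with 1 hairpin, so the effect of the hairpin and any other difference between the lines cannot be told apart, and whether a line was a clone was not stated in the sources used here. Poly(A) libraries were counted per gene, with 16171161 to 23929138 counts per library (median 19639071).

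An inflammasome is a protein platform of the cytosol. A sensor such as NLRP3, which responds to membrane damage and ion flux, NLRC4, which acts with NAIP proteins on bacterial flagellin and secretion systems, or AIM2, which binds cytosolic DNA, recruits pro-caspase-1, in most cases through the adaptor PYCARD (ASC). Caspase-1 then cleaves pro-IL-1β, pro-IL-18 and gasdermin D, whose freed part forms pores in the plasma membrane, while caspase-4 and caspase-5 bind cytosolic LPS themselves and cleave gasdermin D directly. In monocytes, LPS at the cell surface is known to prime the system by inducing IL1B and other components.

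Levels between genes were compared as TPM, a level per length: counts divided by the length of a gene's merged exons and brought to 1 common sum per library. PYCARD was the most abundant of the 10 genes in every group, at 210 ± 12.1 TPM (SD, n = 3) in untreated shNT cells, and NLRP3 was second at 102 ± 8.93 TPM. GSDMD followed at 68.1 ± 4.51 TPM, CASP1 at 42.4 ± 1.08 TPM and CASP4 at 31.9 ± 1.23 TPM. NLRP12, a sensor for which a role in damping inflammation has been described, stood at 28.4 ± 7.20 TPM, and its 3 libraries overlapped those of CASP4. NLRC4 lay far below these, at 2.98 ± 0.36 TPM, with NLRP1, a sensor held in check by the peptidase DPP9, at 1.66 ± 0.23 TPM. CASP5 and AIM2 were at the limit of detection: CASP5 had 6 counts and AIM2 0 counts over the 3 untreated shNT libraries, and a count of 0 in 57856061 allows up to 3 counts, or 0.0519 CPM (counts scaled to the same total in every library), for counting error only. AIM2 reached 17 counts over all 18 libraries and never passed the filter on low counts, so no difference in it was detectable at this depth. All 18 libraries are shown in the plot of TPM by gene, in which the 6 upper genes stay above 11 TPM.

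**Figure D1:**
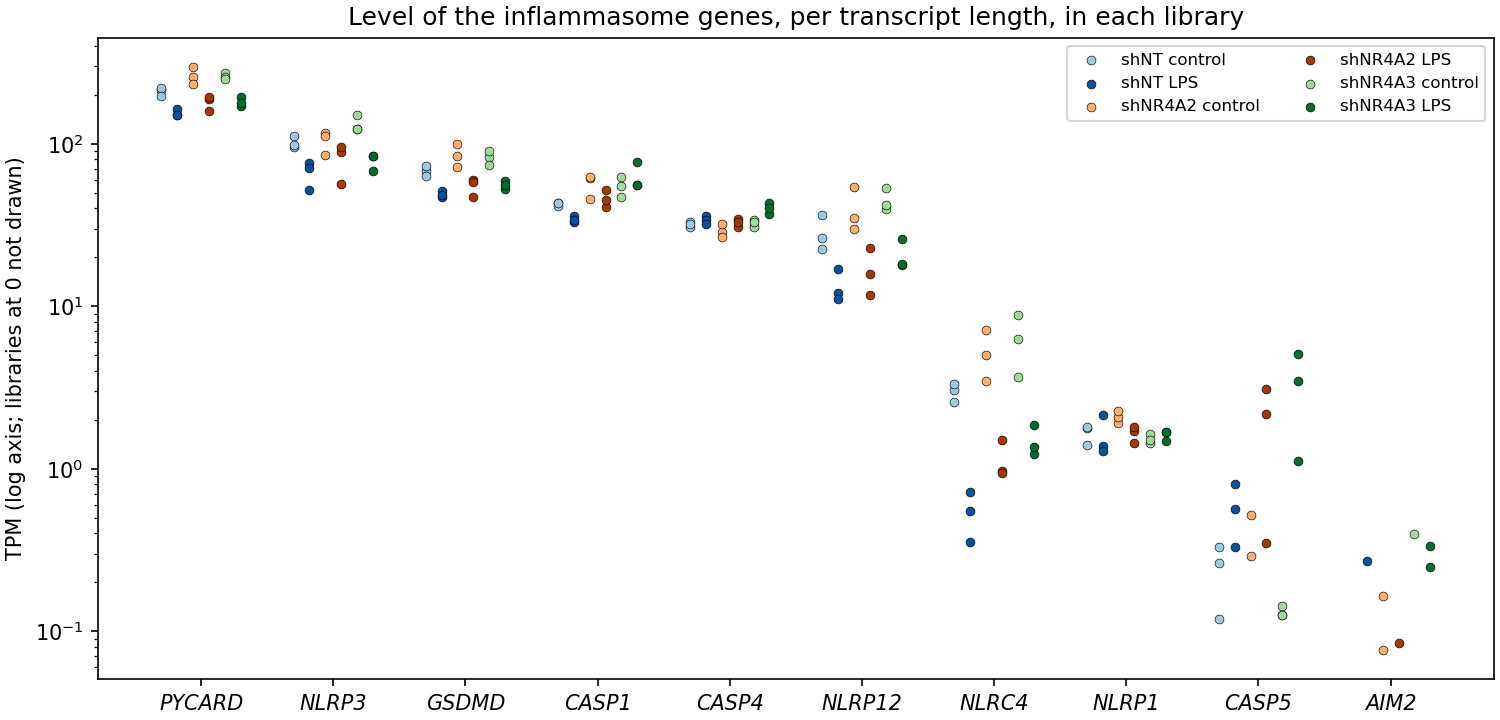
TPM of each of the 10 genes (log axis) in each of the 18 libraries, coloured by group, with genes ordered by mean level; libraries at 0 are not drawn. PYCARD, NLRP3, GSDMD, CASP1, CASP4 and NLRP12 lie above 11 TPM in all libraries, NLRC4 and NLRP1 between 0.355 and 8.80 TPM, and CASP5 exceeds 1 TPM only in libraries with LPS.

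Some features of the loci bear on these counts. CASP4 (104942866 to 104969436), CASP5 (104994235 to 105023168) and CASP1 (105025443 to 105035250) lie side by side on the minus strand of chromosome 11 (GRCh38), next to the CASP1 relatives CARD16, CARD17 and CARD18. Of all 100-base stretches in the transcripts of CASP1, 1.16% also occur in those of CARD16, and none of the CASP4 or CASP5 stretches occur in another gene, so whole reads of that length can be placed apart with that exception. PYCARD (chromosome 16, 31201485 to 31203450, minus strand) shares 59.7% of its exon bases with the antisense gene PYCARD-AS1, which held 278 counts in all libraries against 33579 for PYCARD; whether counting used strand was not stated in the sources used here. NLRP3 lies on chromosome 1 (247416156 to 247449108, plus strand), NLRC4 on chromosome 2 (32224453 to 32265854, minus strand), NLRP12 on chromosome 19 (53793603 to 53824394, minus strand) and GSDMD on chromosome 8 (143553207 to 143563062, plus strand).

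Before the comparisons, the labels were checked on the targeted genes. From here on, values per library are CPM scaled by TMM factors (normalised CPM) unless named as TPM or counts. They are given for replicates 1, 2 and 3 in that order. With LPS, NR4A2 was at 72.9, 84.5 and 61.8 in shNT libraries and at 26.0, 32.1 and 18.3 in shNR4A2 libraries, a log2 fold change of -1.52 ± 0.19 (SE), adjusted p = 0.00265. NR4A3 was at 57.7, 58.2 and 61.3 in shNT and at 34.5, 33.4 and 32.5 in shNR4A3 libraries, -0.82 ± 0.08, adjusted p = 0.000556. Without LPS, where both receptors are scarce, NR4A2 fell by 0.91 on the log2 scale in shNR4A2 cells (adjusted p = 0.0359; up to 0.124 with 1 library left out, above 0.05 without shNT control replicate 1 or 3 or shNR4A2 control replicate 1 or 2) and NR4A3 by 2.47 in shNR4A3 cells (adjusted p = 0.00767). TNF rose with LPS in all 3 lines, by 5.23, 5.14 and 6.14 on the log2 scale in shNT, shNR4A2 and shNR4A3 cells, which matched the LPS labels.

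The cells carried monocyte RNA: 8 of 9 monocyte markers had a mean of at least 1 TPM, led by SPI1 (776 TPM), and FCN1 was under 0.1 TPM. HBB and HBA1 (erythroid) were each under 0.1 TPM on average, CD3E (T cell) and MS4A1 (B cell) likewise, while CD4, which monocytes also express, averaged 171 TPM and the granule gene ELANE 3823 TPM. The summed TPM of the 9 monocyte markers moved with the groups, and is set here mainly between lines, since the TPM of the median gene also fell with LPS (given below). Without LPS it was 2139, 2169 and 1823 in shNT, 2596, 2544 and 2366 in shNR4A2 and 3274, 2974 and 2842 in shNR4A3 libraries. With LPS it was 1391, 1225 and 1113 in shNT, 1956, 1856 and 1678 in shNR4A2 and 2347, 2040 and 2129 in shNR4A3 libraries. With LPS the markers moved in both directions: SPI1 was called higher in each line (by 0.61, 0.76 and 0.79 on the log2 scale in shNT, shNR4A2 and shNR4A3 cells), CEBPA (-2.12, -1.89 and -2.39) and CD33 were called lower in each, and CSF1R lower in shNT and shNR4A3 cells. CEBPA, a transcription factor of the myeloid lineage, was at 1120, 1258 and 928 TPM in untreated and 236, 273 and 149 TPM in LPS-treated shNT libraries. Of the 8 markers tested, 3 were called higher in shNR4A2 against shNT without LPS (CD14, CSF1R and LYZ) and 2 with LPS (CSF1R and LYZ), and 5 were called higher in shNR4A3 without LPS (CD14, CSF1R, SPI1, LYZ and ITGAM) and 4 with LPS (the same without CD14). None was called lower there, and CD33, CEBPA and CD68 were called in none of these comparisons. LYZ, which encodes lysozyme, differed most, by 1.68 and 2.25 on the log2 scale in shNR4A2 and shNR4A3 without LPS, and its mean level was 192 TPM in untreated shNT, 615 in untreated shNR4A2 and 883 in untreated shNR4A3 libraries. Without LYZ the sum was 1851 ± 201, 1887 ± 215 and 2147 ± 179 TPM (SD, n = 3) in these groups, and 1087 ± 138, 1321 ± 136 and 1439 ± 55.0 TPM with LPS. The part of these markers in the differences between lines was not tested. In bulk RNA, fewer cells that express a gene and less RNA per cell cannot be told apart.

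With LPS for 2 h, NLRC4 and NLRP12 fell in each line and NLRP3 in shNT and shNR4A3 cells, while CASP4 rose. In shNT cells, 4 of the 8 genes that passed the filter were called (adjusted p under 0.05), 1 higher and 3 lower, beside 24.9% of the 15711 genes tested (11.6% higher, 13.3% lower). In shNR4A2 cells 3 of 8 were called, 1 higher and 2 lower, beside 19.3% of all genes (9.23% higher, 10.1% lower), and in shNR4A3 cells 6 of 8, 1 higher and 5 lower, beside 28.1% (13.1% higher, 15.0% lower). The median log2 fold change of the 8 genes was -0.24, -0.20 and -0.32 in the 3 lines, beside -0.01, -0.02 and -0.01 over all genes tested. The gene called higher was CASP4 each time, and NLRC4 and NLRP12 were called lower each time. On the TPM scale the median of all genes fell with LPS by 0.23, 0.28 and 0.24 on the log2 scale in the same order. Log2 fold changes of the 10 genes with LPS are therefore given on the normalised scale only.

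NLRC4 showed the steepest fall. It was at 2.83, 2.46 and 2.91 normalised CPM in untreated shNT libraries and at 0.772, 0.565 and 0.391 with LPS. In shNR4A2 libraries it was at 6.64, 3.25 and 4.45 without and 1.74, 1.00 and 1.07 with LPS, and in shNR4A3 libraries at 8.65, 3.37 and 6.04 without and 1.42, 1.42 and 2.07 with LPS. Every library with LPS lay below every untreated library of its line. The log2 fold changes were -2.24 ± 0.30 (adjusted p = 7.91e-05), -1.93 ± 0.33 (adjusted p = 0.00106) and -1.86 ± 0.34 (adjusted p = 0.00187) in shNT, shNR4A2 and shNR4A3 cells. These calls held with any single library left out.

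NLRP12 fell by a similar amount in each line. It was at 47.4, 30.1 and 32.5 normalised CPM in untreated and 25.6, 17.6 and 17.1 in LPS-treated shNT libraries. In shNR4A2 libraries it went from 70.0, 39.0 and 43.6 to 36.9, 22.9 and 18.6, and in shNR4A3 libraries from 74.1, 51.0 and 56.2 to 42.4, 26.6 and 28.8. Replicate 1 was the highest library in all 6 groups, and within each line the treated and untreated libraries did not overlap. The log2 fold changes were -0.87 ± 0.18 (adjusted p = 0.00295), -0.97 ± 0.26 (adjusted p = 0.0183) and -0.89 ± 0.18 (adjusted p = 0.00405). In shNR4A2 cells the call was lost without control replicate 1 or LPS replicate 2 (adjusted p up to 0.0708).

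NLRP3, the sensor most often studied in monocytes, fell by less. It was at 137, 119 and 113 normalised CPM in untreated shNT libraries and at 106, 95.7 and 74.8 with LPS, -0.41 ± 0.12 (adjusted p = 0.0213). In shNR4A3 libraries it went from 159, 181 and 155 to 129, 116 and 101, -0.52 ± 0.11 (adjusted p = 0.00389), again without overlap. In shNR4A2 libraries, at 142, 137 and 100.2 without and 135, 130.4 and 83.8 with LPS, the groups overlapped and the log2 fold change was -0.12 (95% interval -0.52 to 0.27, not called; 0.08 without LPS replicate 3). The call in shNT cells was lost without control replicate 1 or LPS replicate 3 (adjusted p = 0.0894 and 0.0909) and when all 18 libraries shared 1 fit (adjusted p = 0.0876). NLRP1, at 4.71 to 8.08 normalised CPM in the 18 libraries, was not called in any line, with log2 fold changes of 0.16 (-0.10 without LPS replicate 1), -0.06 (0.09 without LPS replicate 2) and 0.32.

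Among the caspases, CASP4 rose with LPS in every line. CASP4 was at 61.3, 58.4 and 56.2 normalised CPM in untreated shNT libraries and at 77.2, 70.4 and 70.9 with LPS. It went from 52.9, 50.1 and 57.6 to 80.2, 63.5 and 74.4 in shNR4A2 libraries and from 66.9, 56.4 and 63.5 to 99.7, 78.0 and 89.7 in shNR4A3 libraries. The treated libraries lay above the untreated ones in every line, by 0.32 ± 0.09 (adjusted p = 0.0161), 0.44 ± 0.13 (adjusted p = 0.0308) and 0.52 ± 0.11 (adjusted p = 0.00472) on the log2 scale. The call in shNT cells was lost without control replicate 3 or LPS replicate 1 (adjusted p up to 0.0639), and that in shNR4A2 cells without control replicate 1 or 2 or LPS replicate 1 or 3 (adjusted p up to 0.130) and without the filter on low counts (adjusted p = 0.0557). CASP1 was at 40.6, 40.0 and 38.6 without and 39.1, 34.7 and 38.2 with LPS in shNT libraries, a log2 fold change of -0.09 (95% interval -0.29 to 0.11), and was not called in shNR4A2 cells either (-0.02, and up to 0.12 without control replicate 1 or 3 or LPS replicate 2 or 3). In shNR4A3 libraries CASP1 was at 63.1, 44.1 and 53.6 without and 91.5, 59.9 and 63.4 with LPS, 0.42 ± 0.17 (adjusted p = 0.0903). Replicate 1 was the highest and replicate 2 the lowest library of both groups, and in a fit with a term for the replicate number (replicate block) CASP1 was called, 0.41 ± 0.08 (adjusted p = 0.00219, beside 39.4% of all genes called in that fit). It was also called when control replicate 1 or LPS replicate 2 was left out (adjusted p = 0.02 and 0.0487).

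The adaptor and the pore former were lower with LPS in each line, but called only in shNR4A3 cells. PYCARD was at 90.7, 96.3 and 79.3 without and 73.7, 77.9 and 75.9 normalised CPM with LPS in shNT libraries (-0.22 ± 0.09, adjusted p = 0.0910), and at 123, 109 and 109 without and 90.3, 94.1 and 91.1 with LPS in shNR4A3 libraries (-0.31 ± 0.09, adjusted p = 0.0232). GSDMD was at 89.4, 97.5 and 78.7 without and 71.4, 74.7 and 75.7 with LPS in shNT libraries (-0.26 ± 0.09, adjusted p = 0.0590), and at 115, 116 and 101 without and 86.8, 87.5 and 88.5 with LPS in shNR4A3 libraries (-0.33 ± 0.09, adjusted p = 0.0156). In neither gene did the treated and untreated libraries of these lines overlap. Both calls in shNR4A3 cells were lost without control replicate 1, LPS replicate 1 or LPS replicate 3 (adjusted p up to 0.0951), and both genes passed in shNT cells without control replicate 3 (adjusted p = 0.0224 for GSDMD and 0.0357 for PYCARD). In shNR4A2 cells PYCARD changed by -0.28 ± 0.13 and GSDMD by -0.37 ± 0.14 on the log2 scale, not called; GSDMD was called there with the replicate block (adjusted p = 0.0234, beside 30.1% of all genes).

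**Figure D2:**
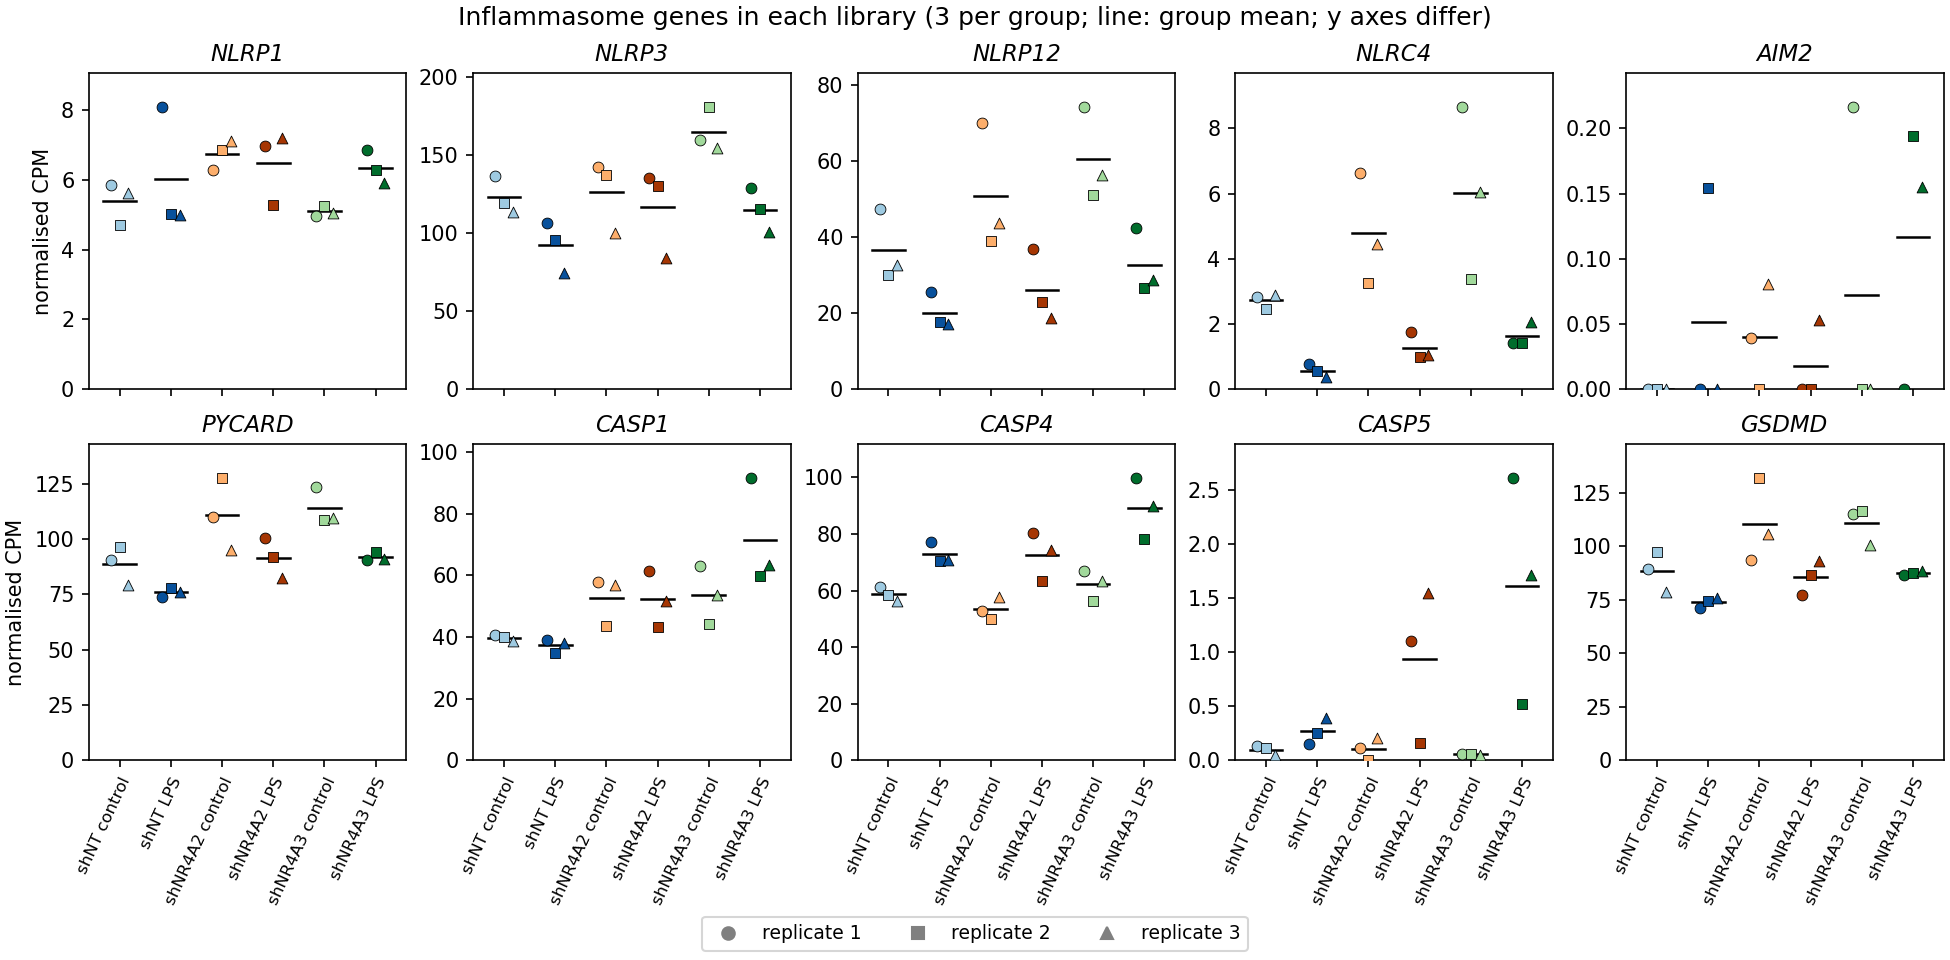
Normalised CPM of each of the 10 genes in each library (y axes start at 0 and differ between panels); marker shape gives the replicate number, colour the group, and the line the mean of 3 libraries. NLRC4 and NLRP12 lie lower and CASP4 higher with LPS in each line, and AIM2 has no or few counts throughout. The mean of CASP5 is highest in shNR4A3 cells with LPS, but replicate 2 there lies below shNR4A2 LPS replicates 1 and 3.

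**Figure D3:**
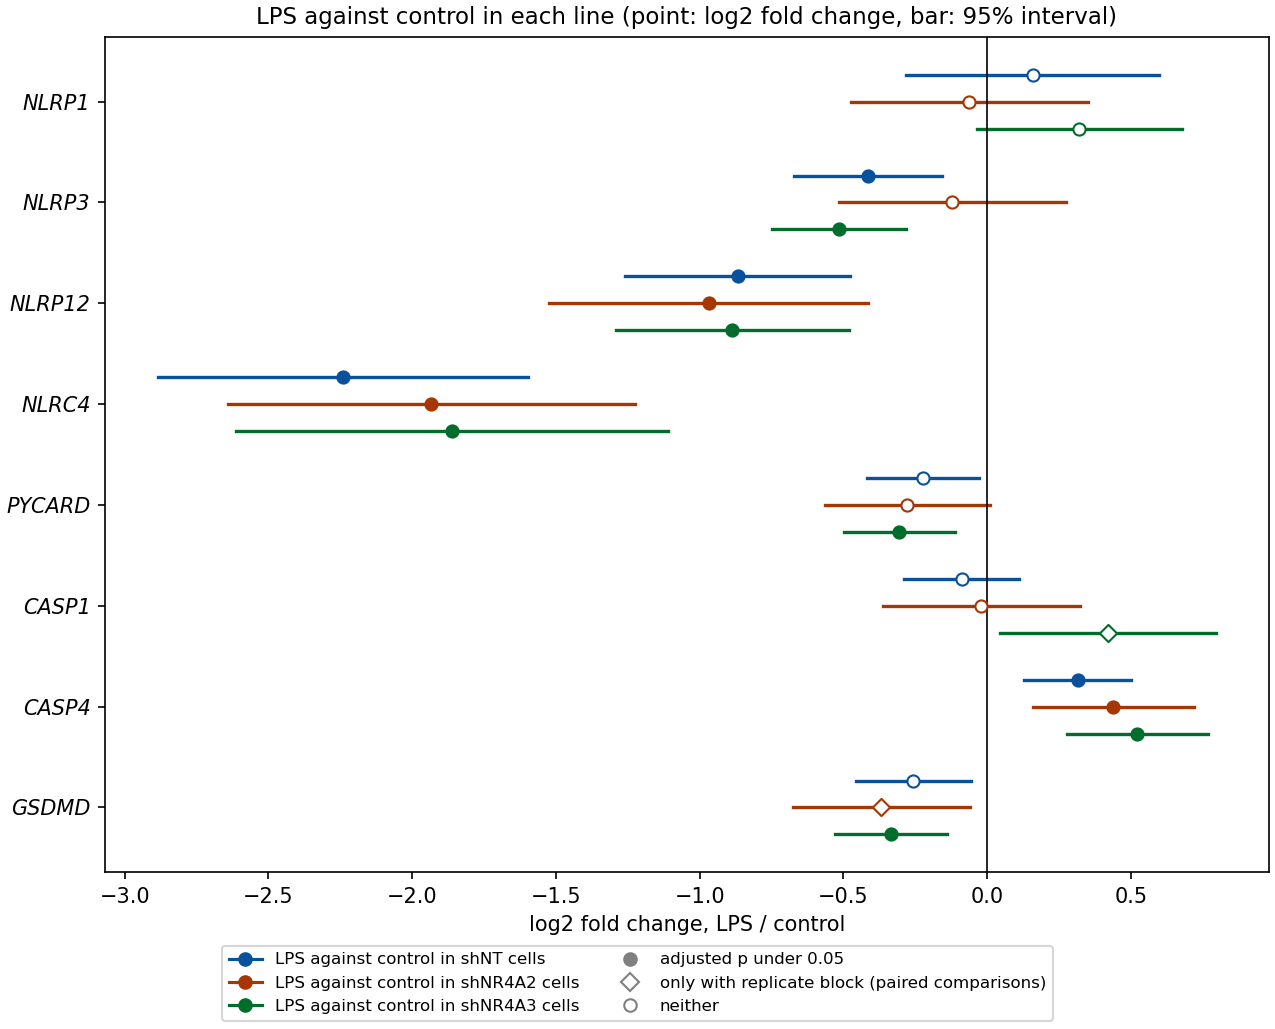
Log2 fold change of LPS against control with its 95% interval for the 8 genes that passed the filter, in shNT (blue), shNR4A2 (brown) and shNR4A3 (green) cells; filled circles mark an adjusted p under 0.05 and diamonds a call only with the replicate block, where replicate numbers paired the libraries. NLRC4 lies near -2 in all 3 lines, NLRP12 near -0.9, and CASP4 to the right of 0.

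Knockdown of NR4A3 was compared with shNT to ask which of these transcripts depend on the line in the resting and in the LPS-treated state. Without LPS, 5 of 8 genes tested were called, all higher in shNR4A3 cells, beside 7.23% of the 15322 genes tested (3.91% higher), and with LPS 3 of 9 were called higher beside 6.45% (3.99% higher). The median log2 fold change of the genes tested was 0.39 without and 0.32 with LPS, beside 0.00 and -0.01 over all genes, and 7 of 8 and 9 of 9 lay above 0 beside 49.6% and 48.9% of all genes. The ninth gene with LPS was CASP5, which passed the filter only through the shNR4A3 libraries where it was high. Without it 2 of 8 were called, 8 of 8 lay above 0 and the median was 0.31. NLRC4, NLRP12, NLRP3, CASP1 and PYCARD made up the calls without LPS, and CASP1, NLRC4 and CASP5 those with LPS. The comparisons without and with LPS share no library but use the same shNR4A3 and shNT lines. Agreement between them is therefore not an independent replication of a knockdown effect. The shNT libraries serve also as the control of shNR4A2 below.

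Among the sensors, NLRC4 rose most. Its values above lay at 3.37 or more in untreated shNR4A3 libraries and at 2.91 or less in untreated shNT libraries, 1.14 ± 0.28 on the log2 scale (adjusted p = 0.0272), and with LPS at 1.42 or more against 0.772 or less, 1.51 ± 0.34 (adjusted p = 0.0306). NLRP12 was higher by 0.72 ± 0.17 without LPS (adjusted p = 0.0194), with all shNR4A3 libraries above all shNT libraries. With LPS its log2 fold change was 0.70 ± 0.20 (adjusted p = 0.0725). NLRP3 was higher by 0.42 ± 0.09 without LPS (adjusted p = 0.0167), again without overlap, and with LPS the difference was 0.32 ± 0.14 (adjusted p = 0.194) and the libraries overlapped. NLRP1 differed by -0.09 (95% interval -0.45 to 0.27) without and 0.07 (-0.40 to 0.55) with LPS, the latter changing sign without shNT LPS replicate 2 or 3 (-0.05 at the lowest).

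CASP1 was called in both states, and all shNR4A3 libraries lay above all shNT libraries in both states. Without LPS the log2 fold change was 0.43 ± 0.12 (adjusted p = 0.0467) and with LPS 0.94 ± 0.15 (adjusted p = 0.00626). CASP4 differed by 0.09 (95% interval -0.12 to 0.29) without LPS and by 0.29 ± 0.10 with LPS (adjusted p = 0.114). PYCARD was called higher without LPS (0.36 ± 0.10, adjusted p = 0.0412) and stood at 0.28 ± 0.07 with LPS (adjusted p = 0.0545). GSDMD stood at 0.32 ± 0.10 without and 0.25 ± 0.07 with LPS (adjusted p = 0.0751 and 0.0776), with no overlap between the libraries of the 2 lines in either state.

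The calls without LPS were close to the limit. With 1 library left out, 0 to 3 of the 5 remained, while the share of all genes called also fell, from 7.23% to between 4.12% and 6.16%. CASP1 and NLRC4 were lost without any 1 of the 3 shNT control libraries or shNR4A3 control replicate 1 or 3 (adjusted p up to 0.195 and 0.115). PYCARD was lost without shNT control replicate 1 or 3 or any shNR4A3 control library (up to 0.169), NLRP3 without shNT control replicate 2 or 3 or shNR4A3 control replicate 2 (up to 0.0768), and NLRP12 without shNT control replicate 2 or 3 or shNR4A3 control replicate 1 (up to 0.0928). With all 18 libraries in 1 fit only NLRC4 was called (adjusted p for the other 4 from 0.0513 to 0.175). With LPS, CASP1 kept its call with any library left out, while NLRC4 lost it without shNT LPS replicate 2 or 3 or shNR4A3 LPS replicate 1 or 3 (adjusted p up to 0.133). NLRP12 gained a call without shNT LPS replicate 1 or shNR4A3 LPS replicate 2 (adjusted p down to 0.0228), and CASP4 without shNR4A3 LPS replicate 2 (adjusted p = 0.0251).

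Libraries with the same replicate number varied together in both of these comparisons. In the blocked fit, GSDMD joined the calls without LPS (0.32 ± 0.06, adjusted p = 0.00786), making 6 of 8, all higher, beside 14.8% of all genes (8.09% higher). With LPS, 8 of 9 were called higher beside 21.8% of all genes (12.3% higher), or 7 of 8 without CASP5, and NLRP1 was not called. The genes added there were NLRP12 (0.70 ± 0.08, adjusted p = 4.5e-05), NLRP3 (0.33 ± 0.06, adjusted p = 0.00192), PYCARD (0.28 ± 0.06, adjusted p = 0.0046), CASP4 (0.29 ± 0.07, adjusted p = 0.00621) and GSDMD (0.25 ± 0.06, adjusted p = 0.0102).

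Knockdown of NR4A2 gave differences in the same range, none of which was called: 0 of 8 genes without LPS, beside 6.45% of 15800 genes tested (3.63% higher), and 0 of 8 with LPS, beside 6.96% of 15590 (4.31% higher). At an unadjusted p under 0.05 there were 5 and 4 of the 8, beside 21.3% and 23.2% of all genes, and DESeq2 called 1 in each state, CASP1, beside 8.13% and 8.33%. NLRC4 was at 6.64, 3.25 and 4.45 in untreated shNR4A2 libraries, all above shNT, 0.81 ± 0.25 (adjusted p = 0.0827), and with LPS at 1.13 ± 0.38 (adjusted p = 0.111), also without overlap. CASP1 was at 57.7, 43.6 and 56.7 without and 61.5, 43.2 and 51.8 with LPS, all above the shNT libraries, 0.41 ± 0.12 (adjusted p = 0.0698) and 0.49 ± 0.13 (adjusted p = 0.0573). The remaining log2 fold changes ran from -0.13 (CASP4) to 0.48 (NLRP12) without LPS and from 0.00 (CASP4) to 0.38 (NLRP12) with LPS; those of NLRP3 without LPS and of CASP4 and NLRP1 with LPS changed sign with 1 library left out. Leaving out shNR4A2 control replicate 2, the lowest CASP1 library of its group, gave calls for CASP1 (adjusted p = 0.00698) and NLRC4 (0.0214), and leaving out shNR4A2 LPS replicate 2 gave one for CASP1 (0.0118). CASP5 also passed the filter and the limit in that last setting, through the 2 high shNR4A2 libraries that were left (adjusted p = 0.0177), and had adjusted p from 0.240 to 0.364 when a shNT LPS library was left out instead.

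The replicate numbers paired the shNR4A2 and shNT libraries too, and the block changed these counts most. Without LPS, 5 of 8 genes were called higher with the block, beside 23.6% of all genes (12.1% higher): NLRP12 (0.46 ± 0.07, adjusted p = 0.000624), PYCARD (0.32 ± 0.06, adjusted p = 0.00262), CASP1 (0.41 ± 0.09, adjusted p = 0.00513), NLRC4 (0.79 ± 0.19, adjusted p = 0.00909) and GSDMD (0.31 ± 0.08, adjusted p = 0.0113). With LPS, 6 of 8 were called higher beside 28.1% (15.2% higher), the same 5 genes and NLRP3 (0.33 ± 0.07, adjusted p = 0.000287). NLRP1 and CASP4 were called in neither state. For NLRP3 with LPS, each shNR4A2 library (135, 130.4 and 83.8) lay above the shNT library of its number (106, 95.7 and 74.8). Without LPS this did not hold, as shNR4A2 replicate 3 (100.2) lay below shNT replicate 3 (113). Replicate 3 was the lowest NLRP3 library in all 6 groups.

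**Figure D4:**
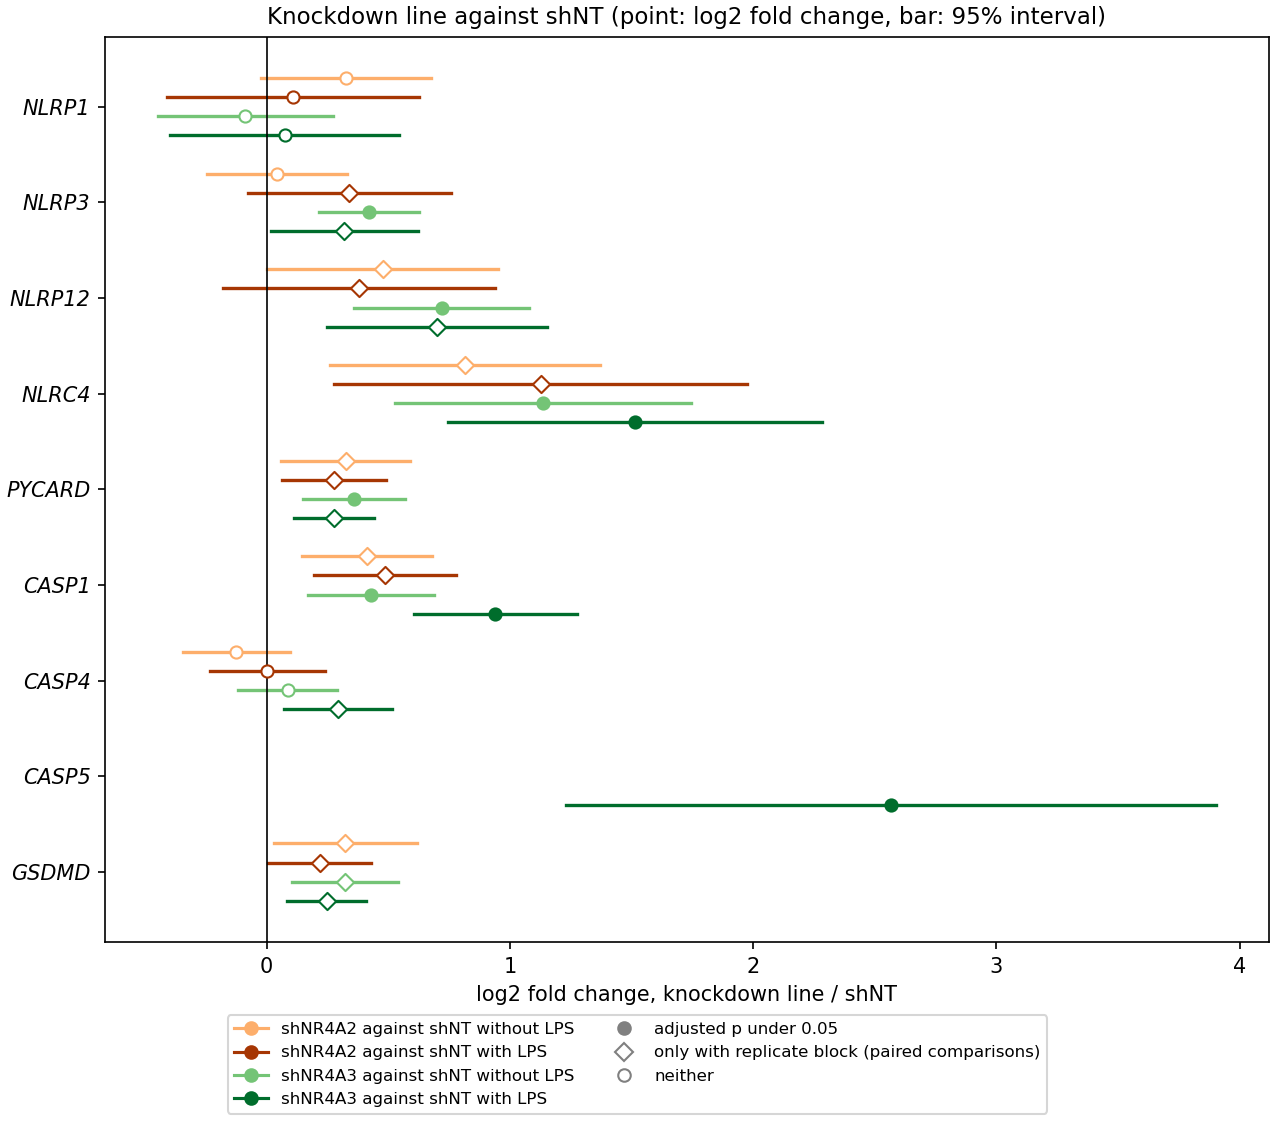
Log2 fold change of each knockdown line against shNT with its 95% interval, without LPS (light) and with LPS (dark), for shNR4A2 (orange, brown) and shNR4A3 (green); filled circles mark an adjusted p under 0.05, diamonds a call only with the replicate block and open circles neither. Most points lie between 0 and 1.51, NLRP1 and CASP4 lie between -0.13 and 0.33, and CASP5 passed the filter only for shNR4A3 with LPS.

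In the direct comparison of the knockdown lines, 0 of 8 genes without LPS and 0 of 9 with LPS were called, beside 3.08% and 2.33% of all genes, with 2 and 2 at an unadjusted p under 0.05, beside 14.5% and 17.8%, and 0 by DESeq2, beside 4.26% and 4.5%. NLRP3 without LPS was lower in shNR4A2 than in shNR4A3 libraries without overlap, -0.38 (95% interval -0.66 to -0.10, adjusted p = 0.166), and NLRP1 was higher there, also without overlap, 0.41 (0.05 to 0.78, adjusted p = 0.266). CASP1 with LPS differed by -0.45 (-0.86 to -0.04, adjusted p = 0.241). With the replicate block NLRP3 was called without LPS (adjusted p = 0.00892, 1 of 8, beside 11.6% of all genes) and CASP1 (-0.44 ± 0.07, adjusted p = 0.000581), CASP4 (-0.29 ± 0.05, adjusted p = 0.00245) and NLRP12 (-0.34 ± 0.09, adjusted p = 0.018) with LPS (3 of 9, beside 23.6%), all lower in shNR4A2. Whether the response to LPS differed between lines was tested as an interaction. None of 8 genes was called for shNR4A2 or for shNR4A3 against shNT, beside 0.0% of 16674 and 16428 genes, and 0 and 1 of the 8 had an unadjusted p under 0.05, beside 2.19% and 5.02%. DESeq2 called none of them, and 2 and 10 of all genes. The largest of these differences was that of CASP1 in shNR4A3 cells, where the LPS response exceeded that of shNT by 0.51 ± 0.21 on the log2 scale (unadjusted p = 0.0275, adjusted p = 0.942).

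CASP5 was a near-silent gene that gained counts with LPS. Counts were 3, 2 and 1 in untreated shNT libraries and 3, 5 and 8 with LPS. In shNR4A2 libraries they were 3, 0 and 5 without and 17, 3 and 29 with LPS, and in shNR4A3 libraries 1, 1 and 1 without and 44, 8 and 33 with LPS. Replicate 2 was the lowest library with LPS in both knockdown lines. As summed counts scaled by the normalised library sizes, the ratio of LPS to control was 2.79 (exact 95% interval for counting error 1.04 to 8.72) in shNT, 8.12 (3.82 to 19.9) in shNR4A2 and 30.2 (9.98 to 149) in shNR4A3 cells. The filter left CASP5 out of the LPS comparisons, so the main test gives no call there. DESeq2 gave an adjusted p of 2.89e-05 in shNR4A3, 0.00873 in shNR4A2 and 0.473 in shNT cells. Leaving out 1 library let CASP5 pass the filter in some fits, through the LPS libraries where it was high. These fits therefore add no support for a rise. In shNR4A3 cells edgeR called CASP5 in each of them (adjusted p from 8.38e-06 to 0.00696). In shNR4A2 cells it was called without control replicate 3 or LPS replicate 2 (adjusted p = 0.0277 and 0.00166). Without control replicate 1 or 2 it was not (adjusted p = 0.0504 and 0.0953). Against shNT with LPS, CASP5 was called higher in shNR4A3 cells, 2.57 ± 0.60 on the log2 scale (adjusted p = 0.0340), where it passed the filter through the shNR4A3 libraries themselves. As summed counts with LPS, the ratio to shNT was 6.10 (3.55 to 11.2) in shNR4A3 and 3.42 (1.91 to 6.44) in shNR4A2 cells, for counting error only, and the knockdown lines differed by -0.80 on the log2 scale (shNR4A2 against shNR4A3, 95% interval -2.36 to 0.77, adjusted p = 0.613). The call in shNR4A3 cells was lost without any 1 of the 3 shNT LPS libraries or shNR4A3 LPS replicate 1 (adjusted p up to 0.124), and CASP5 no longer passed the filter without shNR4A3 LPS replicate 3.

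Promoter sequence was read from RefSeq windows on GRCh38.p14, from 250 bases before to 50 after a start site, which were at hand for 7 of the 10 genes (9 windows). The sequences are shown because CASP4 and CASP5 are neighbours that both gained counts with LPS. In an alignment of their windows before the RefSeq starts, 75.3% of the 231 bases aligned without a gap were identical. No other pair of windows was aligned as a reference. In the deposited annotation all 250 bases of the CASP4 window lie in exons, so it is upstream of the RefSeq start only. The 250 bases before the CASP5 start (chr11:105023169-105023418, minus strand, no exon there in the deposited annotation) are printed with matches to the core of the interferon-stimulated response element (GAAA, any 2 bases, GAAA) and to the STAT site TTCNNNGAA in capitals, searched on both strands.

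CASP5: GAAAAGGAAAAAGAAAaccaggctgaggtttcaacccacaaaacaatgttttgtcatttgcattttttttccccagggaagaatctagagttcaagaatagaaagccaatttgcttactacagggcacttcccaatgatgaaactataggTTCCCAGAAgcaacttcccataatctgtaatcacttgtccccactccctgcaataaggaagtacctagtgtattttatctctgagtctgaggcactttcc

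The capitals at the start hold 2 overlapping matches to the core, with their first bases at -250 and -244 from the start site, and the STAT match begins at -100. The core occurred in 3.57% of the 35116 windows and the STAT site in 7.66%. The same stretch of the neighbour CASP4 (chr11:104968777-104968805, minus strand), set below that of CASP5 (chr11:105023390-105023418), holds no match.
CASP5: GAAAAGGAAAAAGAAAaccaggctgaggt
CASP4: aggaaacaagaaaagaaacaagctgaggt

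AIM2 was the other gene with a match to the core, at -190 from its start (chr1:159076939-159076967, minus strand). The response element of the NR4A receptors, AAAGGTCA, occurred in 1.22% of all windows and in none of the 7 genes. Its shortened form AAGGTCA, without the first base, occurred in 3.92% of windows and in 1 of the 7 genes, NLRC4, where it reads TGACCTT on the gene's strand, at -38 from the start site (chr2:32265641-32265669, minus strand) and again at 42 after it. Exons of the deposited annotation cover 135 of the 250 bases before the AIM2 start and 234 of those before this NLRC4 start. The NF-κB consensus, found in 5.91% of windows, was in none of the 7. A match is a description of the letters in a window.
NLRC4: tttgccctgtgTGACCTTgcccagaaccc
AIM2: ttctaggccacTTTCTGTTTCcaatcagt

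The wider pathway was described by 38 further genes in 3 roles, of which 32 or 33 passed the filter. With LPS, 15 of 33 were called in shNT (6 higher, 9 lower), 13 of 33 in shNR4A2 (6 higher, 7 lower) and 19 of 32 in shNR4A3 cells (10 higher, 9 lower), beside 24.9%, 19.3% and 28.1% of all genes. Among outputs, IL1A rose by 7.80, 8.66 and 9.07 and IL1B by 7.62, 7.82 and 8.45 on the log2 scale in shNT, shNR4A2 and shNR4A3 cells, the 2 largest changes of the pathway in each line. NINJ1, which ruptures the membrane at the end of lytic death, rose by 1.86, 2.42 and 2.32. The necroptosis effector MLKL fell by 0.77, 1.00 and 1.10 and CASP8 by 0.58, 0.52 and 0.52. Among regulators, SERPINB9, an inhibitor of granzyme B, rose by 2.01, 1.97 and 2.93, while TXNIP, a thioredoxin-binding protein linked to NLRP3, fell by 1.09, 1.06 and 0.77. Among other sensors, NOD1, which recognises peptidoglycan fragments, fell by 0.82, 0.89 and 1.23 and CARD8, a relative of NLRP1, by 0.39, 0.48 and 0.39. In shNR4A2 cells the call of CASP8 was lost without control replicate 3 or LPS replicate 1 (adjusted p up to 0.0977) and that of CARD8 without control replicate 1 or 3 or LPS replicate 1 or 2 (up to 0.141).

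In the knockdown comparisons fewer of these were called. IFI16, a DNA sensor of the AIM2 family, was higher in all 4: by 0.74 ± 0.14 and 0.67 ± 0.15 in shNR4A2 without and with LPS (adjusted p = 0.00755 and 0.0333), and by 1.02 ± 0.11 and 1.01 ± 0.11 in shNR4A3 (adjusted p = 9.73e-05 and 0.00112). MEFV, which encodes pyrin, was called higher in shNR4A2 in both states (0.65 ± 0.15 and 0.85 ± 0.12) and in shNR4A3 with LPS (0.68 ± 0.11). NLRC3, a negative regulator of innate signalling, was called lower in shNR4A2 in both states (-1.16 ± 0.22 and -1.10 ± 0.27) and in shNR4A3 without LPS (-0.90 ± 0.17). Beside these, NLRP2 was higher in shNR4A2 without LPS (0.93 ± 0.18), and NAIP, the partner of NLRC4, in shNR4A3 without LPS (0.84 ± 0.22). No regulator was called in any comparison of a knockdown line with shNT, and the counts came to 5 of 33 and 3 of 32 for shNR4A2 and 3 of 33 and 2 of 32 for shNR4A3, without and with LPS, beside 6.45%, 6.96%, 7.23% and 6.45% of all genes. With the replicate block they came to 11 and 15 for shNR4A2 and 7 and 15 for shNR4A3, beside 23.6%, 28.1%, 14.8% and 21.8%. Leaving out 1 library gave 3 to 5 and 1 to 6 for shNR4A2 and 2 to 4 and 2 to 10 for shNR4A3. The shares of all genes beside them ran from 3.19% to 6.92%, 2.13% to 9.23%, 4.12% to 6.16% and 2.38% to 10.6%. With 1 library left out, the call of IFI16 in shNR4A2 with LPS was lost without any 1 of the 3 shNT LPS libraries or shNR4A2 LPS replicate 2 or 3 (adjusted p up to 0.118), and that of NLRC3 there without shNT LPS replicate 2 or 3 or shNR4A2 LPS replicate 1 or 3 (up to 0.157). Without LPS, the call of MEFV in shNR4A2 was lost without shNT control replicate 2 or 3 or shNR4A2 control replicate 1 or 3 (up to 0.104), and that of NAIP in shNR4A3 without shNT control replicate 2 or 3 or shNR4A3 control replicate 1 or 3 (up to 0.128).

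The genes whose pattern over the 18 libraries was closest were found by Pearson correlation of log2 CPM among 16935 genes, as a description. NLRC4 was closest to ADORA3 (r = 0.951) and CD180 (0.946), NLRP12 to C1orf162 (0.946) and KCTD12 (0.941), and NLRP3 to SLC20A2 (0.947) and FOSL2 (0.941). PYCARD was closest to CORO1A (0.959), CASP1 to TMTC2 (0.925), CASP4 to SPP1 (0.967), CASP5 to SPATA5L1 (0.944) and GSDMD to HLX (0.940). NLRP1 had no close match, with LINC01960 at 0.809. All these values share the 6 groups, the LPS effect and the library depths, so high values are common among genes that respond to LPS.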

How the data were processed

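RNA was sequenced from 18 libraries of THP-1 lines (shNT, shNR4A2 and shNR4A3, with or without LPS, 3 per group). The authors deposited whole-number counts per gene, without normalization, with the length of merged exons; the submitters' processing notes name Trimmomatic 0.36, STAR 2.5.2b, featureCounts of Subread 1.5.2 and GRCh38. Multimapping and strand settings were not given in the sources used here. No 2 libraries were identical. Symbols came from GENCODE 29 (56898 genes), and all 10 genes lie at the same position there. The 10 genes and the lists of other genes were chosen with earlier results of these data known.

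TPM and TMM-scaled CPM were computed from the counts. The test was edgeR 4.0.16 (R 4.3.3), the quasi-likelihood F test after filterByExpr, on the 6 libraries of a comparison (12 for an interaction). Benjamini-Hochberg adjustment covered all genes tested, with a limit of 0.05 and SE from the same fit. The test was also run on simulated counts with larger changes than most reported here and no replicate effect. That run does not cover small differences. An exact permutation test of 3 libraries against 3 cannot give a two-sided p below 0.1, so none is printed. Alternatives were DESeq2 1.42.0, RLE size factors, no filter, a replicate block, all 18 libraries in 1 fit and leaving out each library. Named genes were the 10 genes, NR4A1 to NR4A3, TNF, IL6 and CCL20 as checks, any gene called in a list of 38 pathway genes, and the 3 genes closest in pattern to each member. Some genes that this rule names are not reported here.

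Replicate numbers were taken to pair libraries where the correlation of deviations from the group means, over genes, was above 0.1 for each number. The lowest value was 0.0598 for LPS in shNT cells and 0.0174 and 0.0266 in the interactions, where they did not pair, and between 0.159 and 0.354 elsewhere. Counts of a few reads per library limit CASP5 and AIM2.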

Additional observations from a re-analysis of the deposited data

How the results depend on the processing

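With RLE size factors each of the 11 counts of called genes among the 10 stayed within 1.5 times that reported. With DESeq2 the counts moved to 1 and 1 for shNR4A2 against shNT without and with LPS and to 5 for shNR4A3 against shNT with LPS (beside 9.13% of all genes). Without the filter on low counts they moved to 3 and 2 for shNR4A2 against shNT without and with LPS (beside 4.21% and 4.57%) and to 1 for shNR4A2 against shNR4A3 with LPS (2.8%). With all 18 libraries in 1 fit they moved to 5 for LPS in shNR4A2 cells (beside 27.2%) and to 1 for shNR4A3 against shNT without LPS (5.19%). With the replicate block they moved to 5 and 6 for shNR4A2 against shNT without and with LPS, to 8 for shNR4A3 against shNT with LPS, and to 1 and 3 for shNR4A2 against shNR4A3 without and with LPS. In LPS in shNT cells, where the numbers share no pairing, the block added PYCARD and GSDMD (6 of 8 called, beside 32% of all genes), and no other call among the 10 genes changed with it beyond those given. With 1 library left out the counts ran from 1 to 4 for LPS in shNR4A2 cells, beside 12.9% to 20.7% of all genes. For shNR4A2 against shNT they ran from 0 to 2 without and with LPS, beside 3.19% to 6.92% and 2.13% to 9.23%. For shNR4A3 against shNT they ran from 0 to 3 without LPS (4.12% to 6.16%) and from 1 to 5 with LPS (2.38% to 10.6%). Between the knockdown lines these fits called none of the 10 genes, beside 1.56% to 2.97% of all genes without and 0.59% to 1.37% with LPS. The cause of the moves in these counts and shares was not tested. Of 138 pairs of a gene and a comparison followed, the 94 called kept their direction under all alternatives run and 8 that were not called changed sign. Not among them were 11 differences between the knockdown lines and 15 interactions of the 10 genes that no fit to all libraries of a comparison called, of which 8 and 7 changed sign under some alternative. CASP1 with LPS in shNR4A2 cells went to 0.0038 with RLE size factors, and CASP4 in shNR4A2 against shNT with LPS to -0.00065 with DESeq2, -0.011 without the filter, -0.0018 with the replicate block and -0.0025 in 1 fit. With 1 library left out, NLRP1 with LPS ran from -0.097 to 0.29 in shNT and from -0.13 to 0.086 in shNR4A2 cells, where CASP1 ran from -0.14 to 0.12 and NLRP3 from -0.26 to 0.083; in shNR4A2 against shNT, NLRP3 without LPS ran from -0.051 to 0.18, CASP4 with LPS from -0.073 to 0.087 and NLRP1 with LPS from -0.016 to 0.37; and NLRP1 in shNR4A3 against shNT with LPS ran from -0.049 to 0.34. Over all genes tested the block gave 4751 calls for LPS in shNR4A2 cells, 3733 and 4385 for shNR4A2 against shNT, 2267 and 3401 for shNR4A3 against shNT and 1800 and 3666 for shNR4A2 against shNR4A3, without and with LPS; the filter's absence gave 1611 and 1843, 1839 (shNR4A3 with LPS), and 838 and 1102; and 1 fit gave 4601, 1691 (shNR4A2 with LPS) and 1032 (shNR4A2 against shNR4A3 with LPS), where DESeq2 gave 700. In the interactions the block gave 8 and 22 calls and no filter 29 and 138. Among the 38 pathway genes the block raised the counts to 22 for LPS in shNR4A2 cells, 11 and 15 for shNR4A2, 7 and 15 for shNR4A3 against shNT and 6 and 9 between the knockdown lines. Group levels as TPM divided by the TMM factor moved by more than 1 SD in 12 of 60 cases. Depth limits CASP5 and AIM2, and whether it limits the smaller differences of NLRC4 and NLRP1 was not tested.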
